A study of Homo sapiens with 6 samples.

Results

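The genes described here are 10 amino acid transporter genes of the plasma membrane, SLC7A11, SLC7A5, SLC3A2, SLC1A5, SLC1A4, SLC7A1, SLC38A1, SLC38A2, SLC1A3 and SLC43A1. They were taken by gene symbol, as 10 of the 56303 genes of a count table from RNA-seq. The choice was made with earlier results of these data known. All 10 were in the table, and all 10 passed the filter on low counts that left 19916 genes for testing. The libraries were 3 siNFE2L3 libraries, from 786-O cells given an siRNA against NFE2L3, and 3 siControl libraries, from 786-O cells given a negative control siRNA. 786-O is an established human clear cell renal carcinoma line that lacks functional VHL, and both groups share that defect. In 2 siNFE2L3 samples the genotype label names NFE2L4 or NFE2L5, where title and source name give NFE2L3, and both were kept in the group. The cells were grown in RPMI medium with serum and transfected with jetPRIME. The sample labels give 48 h for the siNFE2L3 libraries and 0 h for the siControl libraries, so effects of the siRNA and of that time cannot be told apart. The sources used here do not name the NFE2L3 siRNA used, nor do they say that the 3 libraries of a group came from separate cultures. The p-values are thus about the spread among libraries, and that spread may be technical.

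Amino acid transporters carry amino acids across the plasma membrane, as exchangers that trade one amino acid for another or as carriers driven by sodium. SLC3A2 is the heavy chain that brings several light chains to the cell surface. With SLC7A5 it forms LAT1, which imports large neutral amino acids such as leucine, and with SLC7A11 it forms xCT, which imports cystine in exchange for glutamate. Many genes of this group are known targets of ATF4, the transcription factor of the amino acid response. Some, SLC7A11 above all, are known targets of NFE2L2, which is a relative of NFE2L3. NFE2L2 and NFE2L3 both belong to the cap'n'collar family, whose members pair with small MAF proteins on antioxidant response elements. Clear cell renal carcinoma is known for a high use of glutamine and for altered glutathione metabolism.

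The 10 transporter genes differed little between siNFE2L3 and siControl libraries. SLC38A1, a sodium-coupled carrier of glutamine and other small neutral amino acids, was the 1 gene of the 10 that passed the test, and it was 1.10-fold as high in siNFE2L3 as in siControl libraries. No transporter of the 10 was called lower. The call rested on an adjusted p under 0.05 (quasi-likelihood test of edgeR, Benjamini-Hochberg over all tested genes), and 9 of the 10 did not pass it. The same rule called 26.7% of all tested genes in either direction, 12.7% higher and 14.0% lower. Among the genes with a mean of at least 10 CPM (counts scaled to a common library size), to which 8 of the 10 transporters belong, it called 41.4%. The median log2 fold change of the 10 was -0.03, beside -0.00066 over all tested genes. Their median absolute log2 fold change was 0.07, beside 0.16 over all tested genes and 0.12 over genes with a mean of at least 10 CPM.

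For 8 of the 10 genes the 95% interval of the log2 fold change lay inside -0.25 to 0.25, which is a change of 1.19-fold either way. These 8 were all the transporters with a mean of at least 10 CPM. The other two, SLC1A3 and SLC43A1, had wider intervals. Over the 10 genes together the summed level was 1542 to 1594 CPM in siNFE2L3 and 1547 to 1593 CPM in siControl libraries, so the groups overlapped.

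NFE2L3 itself checked the labels. It had 1087, 1075 and 1068 counts in siNFE2L3 libraries, against 6171, 6508 and 6403 counts in siControl libraries. Its level was 19.8 ± 0.881 CPM in siNFE2L3 and 114.7 ± 1.96 CPM in siControl libraries (SD, n = 3 each), and the groups did not overlap. NFE2L3 fell by 2.54 on the log2 scale (SE 0.05, adjusted p = 3.98e-22, edgeR). The total counts were 51828446 to 56806368 in siNFE2L3 and 53051297 to 57391929 in siControl libraries, and mitochondrial transcripts took 3.998% to 4.39% of them. All 8 genes of a renal carcinoma marker list were tested. They summed to 2493 to 2588 CPM in siNFE2L3 and 2805 to 2859 CPM in siControl libraries, with 1 gene higher and 5 lower. An adjusted p under 0.05 called 26.7% of all tested genes and 41.4% of those with a mean of at least 10 CPM. Among markers of other cell types, CD3E, CDH5, VWF, PDGFRA, APOA1 and HBB did not pass the filter. PTPRC, PECAM1, DCN and ALB passed it, with means of at most 0.336 CPM in either group. MYH11 passed it too, at 11.2 CPM in siNFE2L3 and 12.6 CPM in siControl libraries. None of those that passed, other than CD68, was called. The leukocyte list, nearly all of it CD68, summed to 114.0 to 120.0 CPM in siNFE2L3 and 122.2 to 144.5 CPM in siControl libraries. The part of these differences in the transporter values was not tested.

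Windows around the start sites showed a sequence feature in most of the genes that could be searched. RefSeq sequences (GRCh38.p14) from 250 bases before to 50 bases after each annotated start site were searched on both strands. Of the 10 genes, 9 matched, with 18 windows, and SLC7A11 had no entry. The C/EBP-ATF response element, spelled TGATGNAA with N as any base, is the kind of site ATF4 binds in amino acid response genes. It was in a window of 6 of the 9 genes, against 4.46% of all 27305 genes, and in 6 of the 18 windows, against 3.62% of all 35116 windows. The 6 matches are shown because most of the genes hold one. Each has 30 bases in the direction of the gene, with the motif in capitals. Many genes of this group are known targets of ATF4, so the choice of genes is not independent of the motif. The shares are thus a description and no test. A match on the strand opposite to the gene reads as the reverse complement.
SLC1A4 (chr2:64989381-64989410, plus strand): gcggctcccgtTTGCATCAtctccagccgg
SLC1A3 (chr5:36596357-36596386, plus strand): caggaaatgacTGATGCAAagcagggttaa
SLC3A2 (chr11:62881719-62881748, plus strand): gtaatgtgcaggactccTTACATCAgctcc
SLC38A1 (chr12:46266502-46266531, minus strand): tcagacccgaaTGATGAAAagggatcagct
SLC7A1 (chr13:29595663-29595692, minus strand): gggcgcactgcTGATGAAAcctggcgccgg
SLC1A5 (chr19:46784893-46784922, minus strand): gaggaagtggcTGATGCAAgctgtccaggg

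The core of the antioxidant response element, spelled TGACNNNGC, is the kind of site that small MAF proteins and their cap'n'collar partners bind. It was in a window of 5 of the 9 genes, against 16.1% of all genes, and in 5 of the 18 windows, against 13.3% of all windows. SLC3A2 and SLC7A1 held both motifs in 1 window, at separate positions, and no match of one motif overlapped a match of the other. The 5 matches are shown because the family of NFE2L3 is known to bind this core, with the core in capitals.
SLC1A3 (chr5:36606400-36606429, plus strand): gacagtgaacTGACAAAGCgtgaaagtggt
SLC3A2 (chr11:62881652-62881681, plus strand): cgagggtgggTGACTCAGCgtcctccttcc
SLC7A1 (chr13:29595754-29595783, minus strand): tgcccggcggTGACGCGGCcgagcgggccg
SLC7A5 (chr16:87869490-87869519, minus strand): gcggggttccTGACGCAGCtgcgggcggcg
SLC1A5 (chr19:46787385-46787414, minus strand): cctggatcttGCGAGGTCAgctcccgctcc

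A match is a description of letters and not a bound site, and the counts do not tell which start site these cells use. A gene with more windows has more chances of a match. The C/EBP-ATF match of SLC1A3 lay before the counted span of that gene, and the other C/EBP-ATF matches lay inside the spans of their genes. The antioxidant response element matches of SLC7A1 and SLC7A5 lay before the counted spans, and the other matches of that core lay inside. The 6 genes with a C/EBP-ATF match had log2 fold changes of -0.19 for SLC1A3 to 0.14 for SLC38A1. Those with searched windows but no match in them had -0.01 for SLC7A5, -0.01 for SLC38A2 and -0.17 for SLC43A1. The ranges overlapped. The 5 genes with an antioxidant response element core had log2 fold changes of -0.19 for SLC1A3 to 0.12 for SLC7A1, and none of the 5 was called.

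The genes differed far more from each other than between the groups. Levels between genes were compared as RPKM, which divides CPM by the exon length in kilobases. SLC3A2 was highest, at 82.8 ± 2.83 RPKM in siNFE2L3 and 86.0 ± 2.10 RPKM in siControl libraries (SD, n = 3 each). SLC7A5 and SLC1A5 followed, and these 3 genes stood apart from the rest. Below SLC1A5 the level dropped 2.83-fold to SLC38A2 in siNFE2L3 and 2.92-fold in siControl libraries. SLC38A1, SLC7A11, SLC7A1 and SLC1A4 came next in that order. The largest step, 4.76-fold in siNFE2L3 and 3.99-fold in siControl libraries, lay between SLC1A4 and SLC1A3. SLC43A1 was lowest, at 0.757 ± 0.0681 RPKM in siNFE2L3 and 0.851 ± 0.0626 RPKM in siControl libraries. The order of the 10 genes was the same in both groups, and no pair of neighbours in it overlapped between libraries of a group. The smallest step was 1.13-fold in siNFE2L3, between SLC3A2 and SLC7A5, and 1.12-fold in siControl libraries, between SLC7A5 and SLC1A5.

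**Figure D1:**
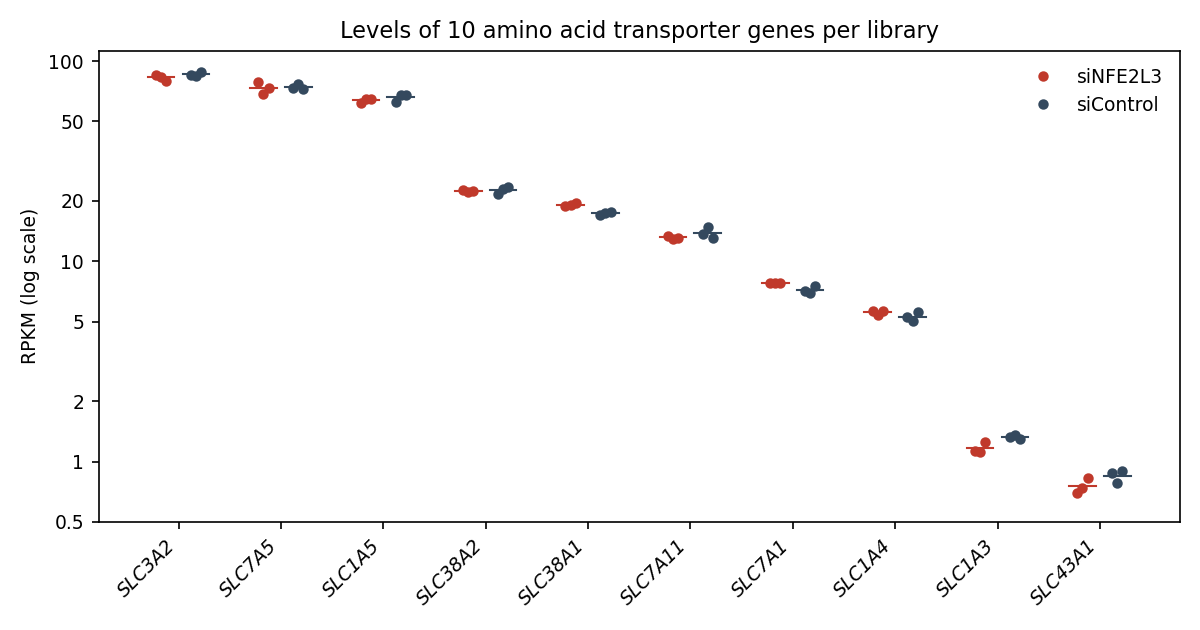
Level of each of the 10 transporter genes in RPKM (vertical axis, log scale), with 1 point per library and a line at the group mean, for siNFE2L3 (red, left) and siControl (dark, right). SLC3A2, SLC7A5 and SLC1A5 lie above the rest, SLC1A3 and SLC43A1 lie lowest, and the order is the same in both groups.

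The heavy chain SLC3A2 (chromosome 11, 62856102 to 62888875, plus strand) had 440.9, 432.3 and 412.3 CPM in siNFE2L3 libraries, against 441.4, 436.7 and 457.4 CPM in siControl libraries. The groups overlapped, with siNFE2L3 replicate 3 lowest. Its log2 fold change was -0.05 with a 95% interval of -0.14 to 0.03 (SE 0.04, adjusted p = 0.333, edgeR). SLC7A5, the LAT1 light chain (chromosome 16, 87830023 to 87869488, minus strand), had 371.3, 324.4 and 349.6 CPM in siNFE2L3 libraries, against 349.7, 363.3 and 342.3 CPM in siControl libraries. The highest and the lowest of the 6 values were both in siNFE2L3 libraries. SLC7A5 had a log2 fold change of -0.01 with a 95% interval of -0.11 to 0.08 (adjusted p = 0.862, edgeR). RP4-536B24.2, on the opposite strand, shares 5.71% of the SLC7A5 exon bases, had a mean of 2.80 CPM and was not called.

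SLC7A11, the xCT light chain that supplies cystine for glutathione, was on chromosome 4 (138164097 to 138242349, minus strand). It had 129.7, 124.5 and 126.6 CPM in siNFE2L3 libraries, against 132.4, 142.4 and 126.6 CPM in siControl libraries. The groups overlapped, and siControl replicate 2 stood highest. The log2 fold change of SLC7A11 was -0.08 with a 95% interval of -0.17 to 0.01 (SE 0.04, adjusted p = 0.219, edgeR). SLC7A11-AS1, an antisense gene, shares 865 bases, or 8.97%, of the SLC7A11 exons and had a mean of 20.8 CPM. SLC7A11-AS1 was called lower (log2 fold change -0.20, adjusted p = 0.0155, edgeR). Whether the counting used the strand of a read is not given, so reads of these overlapping exons are uncertain for both genes.

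LAT1 and xCT need SLC3A2, and SLC3A2 also serves other light chains. Of the 6 light chain genes that pair with it, SLC7A5, SLC7A6, SLC7A7, SLC7A8, SLC7A10 and SLC7A11, SLC7A8 and SLC7A10 did not pass the filter. This comparison was chosen after the values were seen. Summed over the 6, the light chain level in RPKM was 1.14, 1.04 and 1.16 times that of SLC3A2 in siNFE2L3 libraries, against 1.09, 1.15 and 1.03 times in siControl libraries. The ranges overlapped between the groups. The ratio rests on the exon length counted for each gene, so it does not give the number of light chain transcripts per heavy chain transcript. SLC7A5 made up 78.5% to 80.4% of the light chain level in siNFE2L3 and 79.0% to 79.2% in siControl libraries. SLC7A11 made up 13.8% to 14.8% in siNFE2L3 and 14.4% to 15.2% in siControl libraries.

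SLC7A1, the main importer of arginine and lysine (chromosome 13, 29509410 to 29595688, minus strand), had 60.1, 59.8 and 59.9 CPM in siNFE2L3 libraries, against 54.4, 53.4 and 58.0 CPM in siControl libraries. All 3 siNFE2L3 values lay above all 3 siControl values, and the siNFE2L3 values were close together. The log2 fold change of SLC7A1 was 0.12 with a 95% interval of 0.02 to 0.21 (SE 0.05, unadjusted p = 0.0158, adjusted p = 0.0570, edgeR), so it missed the threshold. Without siControl replicate 3, SLC7A1 passed, with a log2 fold change of 0.15 (adjusted p = 0.0262, edgeR).

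SLC43A1, or LAT3, carries large neutral amino acids without an exchange partner (chromosome 11, 57484534 to 57515786, minus strand). It had 138, 147 and 151 counts in siNFE2L3 libraries, against 165, 159 and 175 counts in siControl libraries. In CPM the groups overlapped, at 2.47, 2.62 and 2.94 CPM in siNFE2L3, against 3.11, 2.75 and 3.15 CPM in siControl libraries. Its log2 fold change of -0.17 had the widest interval of the 10 genes, -0.45 to 0.11 (SE 0.13, adjusted p = 0.396, edgeR).

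Among the SLC1 family, SLC1A5 (ASCT2), an exchanger that imports glutamine, lies on chromosome 19 (46774883 to 46788594, minus strand). It had 205.8, 214.9 and 214.9 CPM in siNFE2L3 libraries, against 208.4, 225.3 and 226.5 CPM in siControl libraries. The lowest siControl value lay inside the siNFE2L3 range. SLC1A5 had a log2 fold change of -0.06 with a 95% interval of -0.14 to 0.03 (adjusted p = 0.362, edgeR). An antisense gene, CTB-147N14.6, shares 23.4% of the SLC1A5 exon bases, had a mean of 36.3 CPM and was not called (log2 fold change -0.08, adjusted p = 0.288, edgeR). SLC1A4 (ASCT1), an exchanger of alanine, serine and cysteine (chromosome 2, 64988477 to 65023865, plus strand), had 39.0, 37.6 and 39.3 CPM in siNFE2L3 libraries, against 36.4, 35.0 and 38.9 CPM in siControl libraries. The groups overlapped through siControl replicate 3. Its log2 fold change was 0.07 with a 95% interval of -0.04 to 0.18 (adjusted p = 0.344, edgeR).

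SLC1A3 (GLAST, or EAAT1), a sodium-driven importer of glutamate and aspartate, lies on chromosome 5 (36606355 to 36688334, plus strand). It had 396, 395 and 403 counts in siNFE2L3 libraries, against 441, 490 and 453 counts in siControl libraries. In CPM these were 7.09, 7.03 and 7.84 in siNFE2L3, against 8.31, 8.47 and 8.16 in siControl libraries. All siNFE2L3 values lay below all siControl values. The log2 fold change of SLC1A3 was -0.19 with a 95% interval of -0.36 to -0.01 (SE 0.08, unadjusted p = 0.0389, adjusted p = 0.113, edgeR), and it missed the threshold.

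SLC38A1 and SLC38A2, both carriers of small neutral amino acids such as glutamine and alanine, are neighbours on chromosome 12 with 88171 bases between them. SLC38A1 (46183063 to 46270017, minus strand) had 188.2, 192.1 and 195.2 CPM in siNFE2L3 libraries, against 169.6, 174.8 and 177.2 CPM in siControl libraries. The lowest siNFE2L3 value lay above the highest siControl value. SLC38A1 averaged 191.8 ± 3.47 CPM in siNFE2L3 and 173.9 ± 3.90 CPM in siControl libraries (SD, n = 3 each). It rose by 0.14 on the log2 scale with a 95% interval of 0.06 to 0.22 (SE 0.04, adjusted p = 0.00800, edgeR). In fold terms the interval ran from 1.04 to 1.17. Without siNFE2L3 replicate 3 the log2 fold change was 0.13 and the call was lost (adjusted p = 0.0557, edgeR).

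SLC38A2, the family member best known for its induction when amino acids run short (46358189 to 46372867, minus strand), had 149.7, 147.0 and 147.9 CPM in siNFE2L3 libraries, against 143.2, 150.7 and 154.6 CPM in siControl libraries. The siNFE2L3 values lay inside the siControl range. SLC38A2 had a log2 fold change of -0.01 with a 95% interval of -0.10 to 0.07 (adjusted p = 0.862, edgeR). No exon of either gene overlapped one of another gene. The stretches from 250 bases before to 15 bases after a RefSeq start site are shown for both neighbours. SLC38A1 had 2 windows, of which the one with the match is shown. The other genes with a C/EBP-ATF match were not called, and whether the motif bears on the call of SLC38A1 was not tested. The C/EBP-ATF match is in capitals in SLC38A1, and no such letters are in the SLC38A2 stretch. Bases more than 250 before or 50 after an annotated start site were not searched. The stretch thus does not show that SLC38A2 lacks the motif elsewhere.
SLC38A1 (chr12:46266502-46266766, minus strand): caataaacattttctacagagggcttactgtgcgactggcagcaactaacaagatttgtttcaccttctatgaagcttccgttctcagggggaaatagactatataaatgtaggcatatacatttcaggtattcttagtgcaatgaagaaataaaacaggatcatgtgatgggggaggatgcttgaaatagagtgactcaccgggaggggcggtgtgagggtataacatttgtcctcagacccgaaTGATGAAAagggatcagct
SLC38A2 (chr12:46372759-46373023, minus strand): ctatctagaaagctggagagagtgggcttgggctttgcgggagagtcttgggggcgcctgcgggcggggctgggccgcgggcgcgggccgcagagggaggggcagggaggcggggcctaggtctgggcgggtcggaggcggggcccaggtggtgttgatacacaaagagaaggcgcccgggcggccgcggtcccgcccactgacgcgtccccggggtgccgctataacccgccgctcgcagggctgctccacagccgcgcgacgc

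Counted over the 10 genes, SLC38A1 and SLC7A1 lay higher and SLC1A3 lower with no overlap between the groups of libraries. That is 3 of 10 genes, beside 39.5% of all tested genes. The same 3 genes had an unadjusted p under 0.05, beside 36.7% of all tested genes. None of the 10 met the cutoffs the authors used, at least a 2-fold change and an unadjusted p under 0.05, which 1.10% of all tested genes met. With 10 genes, these counts stand near or below the shares over all genes and single out no property of the transporters.

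**Figure D2:**
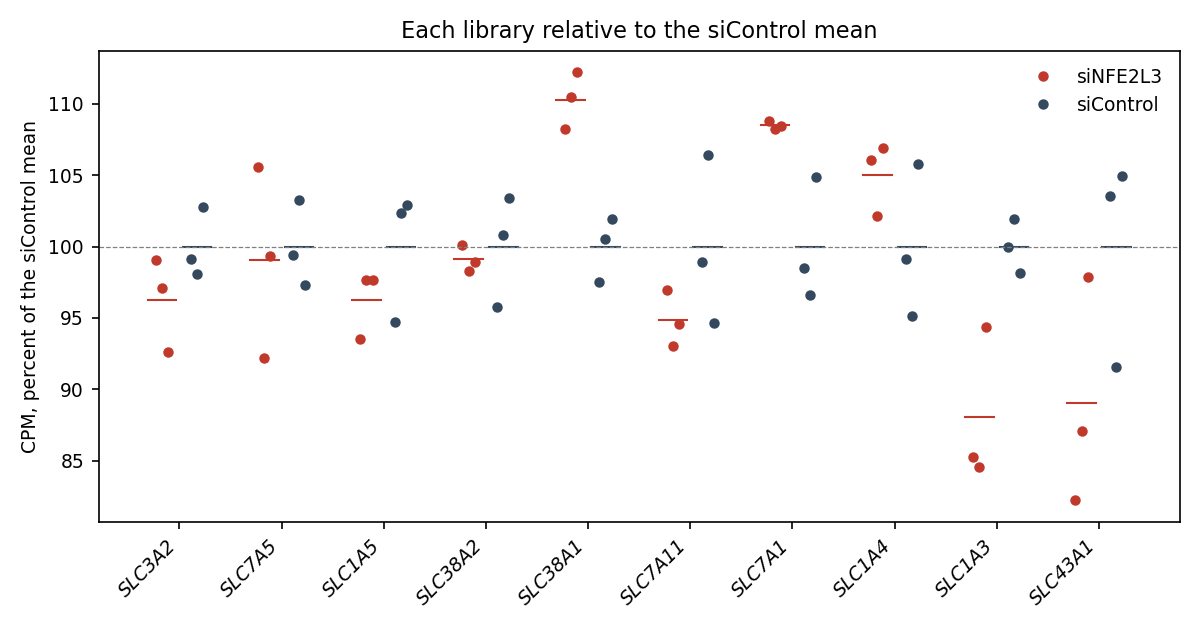
CPM of each of the 10 transporter genes in each library as a percent of the siControl mean of that gene (vertical axis), with a line at each group mean, for siNFE2L3 (red, left) and siControl (dark, right). SLC38A1 and SLC7A1 lie higher and SLC1A3 lower in siNFE2L3 with no overlap, and the other 7 genes overlap.

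**Figure D3:**
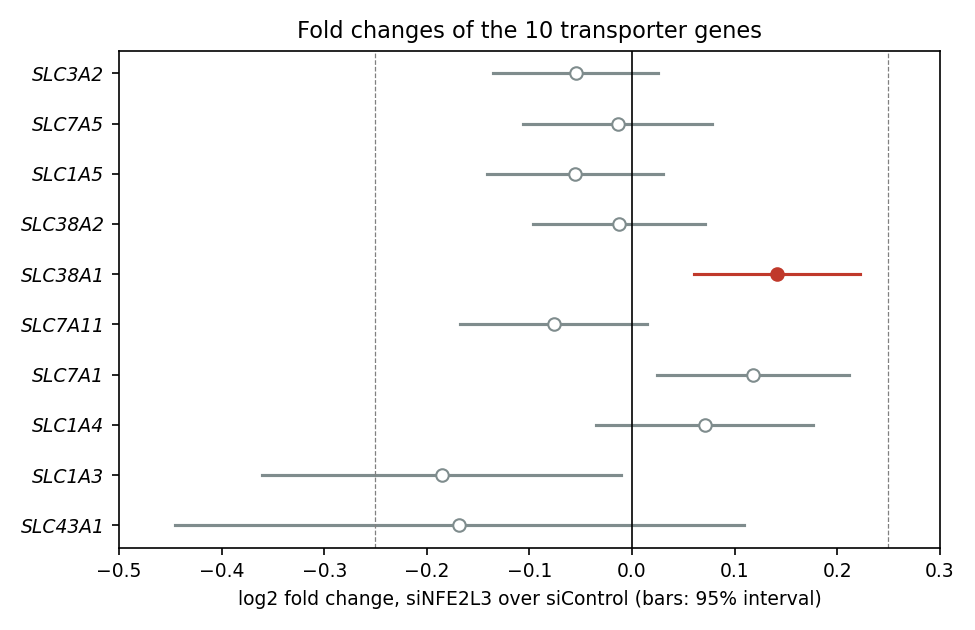
Log2 fold change of siNFE2L3 over siControl for each transporter gene (horizontal axis), with bars for the 95% interval, a filled red point for an adjusted p under 0.05 and dashed lines at -0.25 and 0.25. SLC38A1 is the filled point, at 0.14, and the bars of SLC1A3 and SLC43A1 reach past the dashed line at -0.25.

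Ratios of gene pairs within a library do not depend on how libraries are scaled. Of 5 pairs compared, none passed a two-sided exact permutation test, whose smallest possible p with 3 against 3 libraries is 0.1, so the test could not reach 0.05. SLC38A2 was 1.21, 1.16 and 1.15 times SLC38A1 per exon length in siNFE2L3 libraries, against 1.28, 1.31 and 1.32 times in siControl libraries. The groups did not overlap, and the difference was -0.15 on the log2 scale (exact p = 0.1, 0.5 adjusted over 5 pairs). SLC1A5 was 10.99, 11.9 and 11.4 times SLC1A4 in siNFE2L3 libraries, against 11.9, 13.4 and 12.1 times in siControl libraries. These overlapped narrowly (difference -0.13 on the log2 scale, exact p = 0.2, 0.5 adjusted). The light chain over heavy chain ratios overlapped widely. SLC7A11 over SLC3A2 was 0.155 to 0.165 in siNFE2L3 and 0.149 to 0.175 in siControl libraries (difference -0.02 on the log2 scale, exact p = 0.9). SLC7A5 over SLC3A2 was 0.819 to 0.925 in siNFE2L3 and 0.817 to 0.908 in siControl libraries (difference 0.04, exact p = 0.5). SLC7A5 over SLC43A1, an exchanger over a carrier with overlapping substrates, was 88.5 to 111.9 in siNFE2L3 and 80.8 to 98.4 in siControl libraries (difference 0.15, exact p = 0.4). With each library left out, the log2 difference of SLC38A2 to SLC38A1 stayed at -0.17 to -0.14. The log2 differences of the other pairs ranged more widely. No pair shifted by as much as the larger SD of its log2 ratios within a group. For SLC7A5 to SLC43A1 the difference was 0.05 without siNFE2L3 replicate 1, 0.10 without siControl replicate 3 and 0.24 without siControl replicate 2. For SLC1A5 to SLC1A4 it was -0.07 without siControl replicate 2. For SLC7A11 to SLC3A2 it was 0.04 without siControl replicate 2 and -0.08 without siControl replicate 3, so its sign was not fixed. For SLC7A5 to SLC3A2 it ran from 0.00032 without siControl replicate 3 to 0.10 without siNFE2L3 replicate 2.

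**Figure D4:**
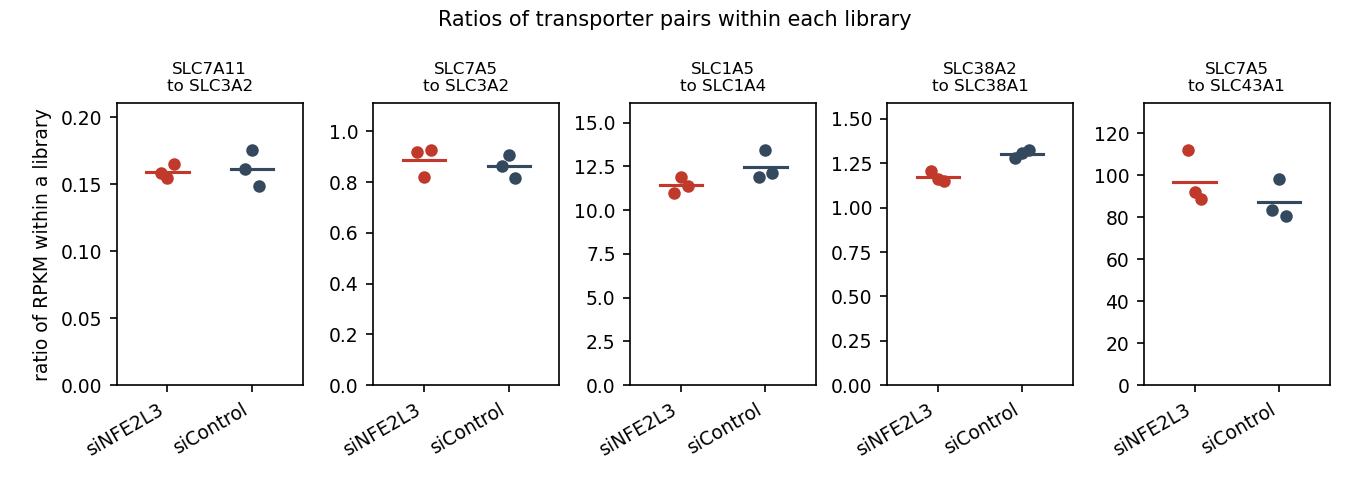
Ratio of RPKM of 5 transporter pairs within each library (vertical axes, from 0), with 1 point per library and a line at the geometric mean, for siNFE2L3 (red, left) and siControl (dark, right). Only for SLC38A2 to SLC38A1 are the groups apart, with all siNFE2L3 ratios below all siControl ratios.

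Other genes of amino acid transport and use were taken as 4 lists. Of 37 other amino acid transporter genes, 16 passed the filter, of which 3 were higher, 6 lower and 7 not called, where 12.7% of all tested genes were called higher and 14.0% lower. The count of lower genes was 2 without siControl replicate 3, siNFE2L3 replicate 1 or siNFE2L3 replicate 3 and 3 without siControl replicate 2, and that of higher genes was 1 without siNFE2L3 replicate 2. Their median log2 fold change was -0.03 and their median absolute log2 fold change 0.29, beside 0.16 over all tested genes. SLC36A4, a carrier with high affinity for proline and tryptophan, averaged 10.2 ± 0.864 CPM in siNFE2L3 and 8.20 ± 0.205 CPM in siControl libraries (SD, n = 3 each; log2 fold change 0.31, adjusted p = 0.00567, edgeR). SLC38A6, a relative of SLC38A1, averaged 11.1 ± 0.396 CPM in siNFE2L3 and 13.4 ± 1.10 CPM in siControl libraries (log2 fold change -0.28, adjusted p = 0.00711, edgeR). Exons of SLC38A6 share 245 bases with TRMT5 on the opposite strand. SLC38A7 and SLC38A9, both lysosomal, also fell, with log2 fold changes of -0.40 (adjusted p = 0.0109) and -0.46 (adjusted p = 0.00954, edgeR), at means under 7 CPM in both groups. The SLC38A7 values overlapped between the groups.

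The amino acid response list held 22 genes, all tested, of which 2 were higher, 8 lower and 12 not called, with a median log2 fold change of -0.05. The rule called 26.7% of all tested genes and 41.4% of those with a mean of at least 10 CPM. ATF4 itself averaged 436.0 ± 4.49 CPM in siNFE2L3 and 438.6 ± 10.3 CPM in siControl libraries, and the groups overlapped (log2 fold change -0.01, SE 0.04, adjusted p = 0.905, edgeR). PSAT1, an enzyme of serine synthesis, was lower in siNFE2L3, at 59.8 ± 0.937 CPM, against 95.9 ± 2.42 CPM in siControl libraries (log2 fold change -0.68, adjusted p = 1.43e-11, edgeR). SHMT2, a mitochondrial enzyme that uses serine, had a log2 fold change of -0.29 (adjusted p = 1.86e-05, edgeR). RP11-123K3.9, on the opposite strand, shares 427 bases, or 8.83%, of the SHMT2 exons and was called lower too (log2 fold change -0.31, adjusted p = 6.00e-04, edgeR), so reads of these exons are uncertain. ATF3, a stress-induced transcription factor, averaged 43.2 ± 1.57 CPM in siNFE2L3 and 55.3 ± 5.99 CPM in siControl libraries (log2 fold change -0.36, adjusted p = 5.80e-05, edgeR). DDIT3 (CHOP) was lower with a log2 fold change of -0.23 (adjusted p = 1.46e-04, edgeR), and 28.0% of its exon bases overlap MARS on the opposite strand, which was lower too (log2 fold change -0.16, adjusted p = 0.00526, edgeR).

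Of 12 genes of glutamine and cysteine use, 11 were tested, of which 1 was higher, 3 lower and 7 not called, with a median log2 fold change of -0.06. These 4 of 11 genes stand beside 26.7% called among all tested genes and 41.4% among those with a mean of at least 10 CPM. GCLC, which catalyses the first step of glutathione synthesis, averaged 34.5 ± 1.14 CPM in siNFE2L3 and 44.5 ± 1.83 CPM in siControl libraries (log2 fold change -0.37, adjusted p = 3.59e-06, edgeR). RP1-27K12.2, on the same strand, shares 6.25% of the GCLC exon bases. GSS, the second enzyme of that path, had a log2 fold change of -0.18 (adjusted p = 0.0180, edgeR). GOT1 and GPT2, transaminases that make aspartate and alanine from glutamate, went opposite ways. GOT1 averaged 25.7 ± 0.661 CPM in siNFE2L3 and 30.9 ± 0.706 CPM in siControl libraries (log2 fold change -0.27, adjusted p = 4.35e-04, edgeR). GPT2 averaged 65.5 ± 2.10 CPM in siNFE2L3 and 56.6 ± 2.02 CPM in siControl libraries (log2 fold change 0.21, adjusted p = 0.00110, edgeR).

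For amino acid sensing by mTORC1, 18 of 20 genes were tested, of which 1 was higher, 6 lower and 11 not called, with a median log2 fold change of -0.04. Among all tested genes 12.7% were called higher and 14.0% lower, and 41.4% were called in either direction among those with a mean of at least 10 CPM. The count of higher genes was 0 without any 1 library other than siControl replicate 1, and that of lower genes was 3 without siControl replicate 2, siNFE2L3 replicate 1 or siNFE2L3 replicate 3. MLST8, an mTOR subunit, averaged 18.9 ± 0.468 CPM in siNFE2L3 and 22.9 ± 0.447 CPM in siControl libraries (log2 fold change -0.27, adjusted p = 7.09e-04, edgeR). BRICD5, on the opposite strand, shares 164 bases of the MLST8 exons and was called higher (log2 fold change 0.43, adjusted p = 0.00759, edgeR). SESN1, a sestrin, and LAMTOR3, a Ragulator subunit, had log2 fold changes of -0.42 (adjusted p = 0.00587) and -0.26 (adjusted p = 0.0116, edgeR). RP11-787I22.3, on the opposite strand, shares 7.09% of the SESN1 exon bases and was not called. SLC38A9, the lysosomal arginine sensor, is in this list and in that of other transporters. The median absolute log2 fold changes were 0.15 in the response list, 0.16 in the glutamine and cysteine list and 0.16 in the sensing list, beside 0.07 in the 10 transporters.

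**Figure D5:**
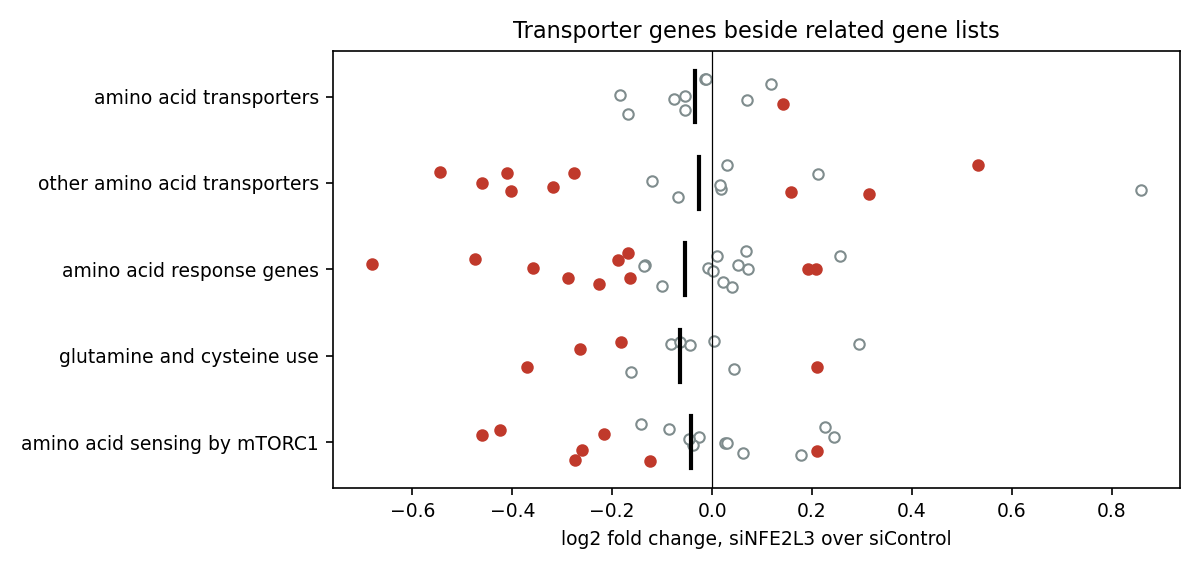
Log2 fold change of siNFE2L3 over siControl (horizontal axis) for the 10 transporters and for the tested genes of 4 related lists, with 1 point per gene, filled red for an adjusted p under 0.05, and a black bar at each median. The 10 transporters lie between -0.19 and 0.14, and called genes of the other lists lie on both sides of 0.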

How the data were processed

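RNA-seq of 786-O cells was analysed, with 3 siNFE2L3 and 3 siControl libraries grouped by their labels. Sequencing is labelled DNBSEQ-T7 with a stranded kit, whereas the study's methods name Illumina. Per the methods and processing notes, the authors used Trimmomatic 0.36 for trimming, collapsed reads by molecular identifier, mapped them with STAR 2.5.3a and counted them in exons with featureCounts (Subread 1.5.1). The deposited table holds raw counts and exon lengths, with GRCh38 coordinates. Even numbers made up 67.6% to 69.9% of counts under 30 and 52.2% to 53.5% of higher ones, as when both mates are counted, so halved counts were tried. No column of per-sample values was left out.

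Genes were kept by filterByExpr (minimum count 10), scaled by TMM and tested by quasi-likelihood in edgeR 4.0.16 and R 4.3.3, with Benjamini-Hochberg adjustment over 19916 genes. CPM and RPKM were computed from the counts and TMM factors. No 2 libraries of a group agreed within sampling noise. Pair ratios were compared with exact permutation tests. The procedure was tested on simulated data. Alternatives were RLE and upper quartile scaling, a minimum of 10 counts in every library, no filter, DESeq2 1.42.0, limma-voom (limma 3.58.1), a replicate block, halved counts, leaving out each library, a fold of 1.5, and the authors' cutoffs. Promoters were searched in Python 3.11.15. The text names the 10 transporters, NFE2L3, ATF4, up to 4 genes per list with the smallest adjusted p, and genes that overlap a named gene. The heavy and light chain sums were added later. Members and lists were chosen with earlier results of these data known. Of the cell type markers, 1 is not reported here.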

Additional observations from a re-analysis of the deposited data

How the results depend on the processing

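Of 140 log2 fold changes of the 10 transporters under 14 alternatives, 4 gained a call, all for SLC7A1, 1 lost it, and no called value changed sign. The values of SLC7A5 and SLC38A2, not called in any of them, ran from -0.06 to 0.03 and from -0.04 to 0.01. SLC38A1 stayed past the threshold in 13 of 14, with a log2 fold change of 0.12 to 0.16 (edgeR, DESeq2 or limma-voom), and lost its call without siNFE2L3 replicate 3 (adjusted p = 0.0557, edgeR). SLC7A1 gained a call under upper quartile scaling, at least 10 counts in every library, counts halved and without siControl replicate 3 (edgeR). SLC7A5 moved to a log2 fold change of 0.03 without siNFE2L3 replicate 2, and was not called. NFE2L3 stayed at -2.57 to -2.51. Transporters called higher numbered 2 with upper quartile scaling, with at least 10 counts in every library and with counts halved, 0 with a fold of 1.5, 0 with the authors' cutoffs, and 0 to 2 when a library was left out. Transporters called lower numbered 0 in every setting, DESeq2 and limma-voom included. In the main fit, 1 of the 10 had an unadjusted p under 0.05 and a negative log2 fold change (SLC1A3, edgeR). Among other amino acid transporters, 0 were higher and 0 lower with a fold of 1.5 or the authors' cutoffs, and 1 to 3 were higher and 2 to 6 lower with a library left out. Among response genes, 0 were higher with either cutoff, and 1 was lower with a fold of 1.5 and 0 with the authors' cutoffs. For glutamine and cysteine use, 0 were higher and 0 lower with either cutoff. For amino acid sensing by mTORC1, 0 were higher with no filter, with DESeq2, with the replicate block and with either fold cutoff, 0 to 1 with a library left out, and 0 were lower with either fold cutoff and 3 to 6 with a library left out. With a library left out, the log2 difference of the pair ratios ran from 0.05 to 0.24 for SLC7A5 to SLC43A1, from -0.16 to -0.07 for SLC1A5 to SLC1A4 and from -0.08 to 0.04 for SLC7A11 to SLC3A2. The causes were not tested, apart from the fewer genes that a fold cutoff can call. The replicate block called 4782 of the tested genes, against 5320 without it. Same-numbered samples correlated at -0.07 to -0.02 in their deviations, and 0 of 6 samples correlated best with their own number. No shared deviation was thus seen, but this cannot settle whether same-numbered samples were handled together. Under the block 1 transporter, SLC38A1, was called, and no pair ratio passed (smallest possible p 0.25). SLC43A1 and SLC1A3 had the fewest counts of the 10 genes, 138 to 490 per library, and the widest intervals. The part of counting error in that width was not tested.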
